A study of Mus musculus with 9 samples.

Results

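The genes described here are 4 Fcγ receptor genes (Fcgr1, Fcgr2b, Fcgr3 and Fcgr4), the neonatal Fc receptor gene Fcgrt, the adaptor genes Fcer1g and Tyrobp and the kinase gene Syk. They were taken by symbol from a table of 55253 gene symbols measured in mouse liver, and all 8 were found. All 8 were also among the 14759 genes that averaged 1 CPM or more (CPM is a gene's share of its library's reads, scaled between libraries). The genes were chosen on results of the same contrast between the groups. Their differences are therefore a description and no independent evidence of a direction.

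Livers came from 9 male mice of the strain labelled C57Bl/6J. In the first group, called WD+alcohol here, 5 mice received from 10 weeks of age a diet the labels call WD, with 10% alcohol in sweetened water, for 23 weeks. The 4 control mice had chow and tap water, also from 10 weeks of age and for 23 weeks. No group received the diet, the sweetened water or the alcohol alone, so their parts cannot be told apart. RNA of whole liver was read from transcript 3′ ends, so 1 read stands for 1 transcript end whatever the length of the transcript, and levels of different genes can be set side by side in CPM. In such RNA, fewer cells of a type and less RNA per cell cannot be told apart.

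The libraries held 3635860 to 6643645 reads, and 1 read was worth 0.152 to 0.270 CPM. Hepatocyte markers summed to between 47825 and 88898 CPM in every library, the highest sum of any cell type list. The closest pair of libraries still differed by more than counting noise (chi-square per degree of freedom 6.34), so no library was a copy of another. The groups were compared by limma-trend on log2(CPM + 1), where a fold change understates the change of low genes. A gene was called at a Benjamini-Hochberg adjusted p under 0.05 over all tested genes. Of all tested genes 1.61% were called higher in the WD+alcohol group and 0.678% lower, and in 3.34% every WD+alcohol library lay above every control library.

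Fc receptors bind the constant part of antibodies. The activating receptors for IgG have no signalling motif of their own in the mouse. They pair with the γ chain encoded by Fcer1g, whose cytoplasmic tail carries an ITAM, a tyrosine motif that Src-family kinases phosphorylate. Tyrobp encodes DAP12, a second ITAM adaptor used by receptors such as TREM2. Phosphorylated ITAMs recruit the kinase Syk, which starts phagocytosis, the oxidative burst and cytokine release in macrophages. FcγRIIb, the product of Fcgr2b, carries an inhibitory motif (ITIM) instead, and in liver it is known from sinusoidal endothelium and Kupffer cells, where it clears immune complexes. Fcgrt encodes the heavy chain of FcRn, which pairs with β2-microglobulin, recycles IgG and albumin and signals through no ITAM.

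Of the 8 genes 5 were called higher (Fcgr1, Fcgr2b, Fcgr3, Fcer1g and Tyrobp) and 0 lower, and in 6 every WD+alcohol library lay above every control. The 6 were those 5 and Fcgr4. Because this contrast chose the genes, nothing is read from these counts against the shares of all genes above. The median log2 fold change of the 8 was 0.65, and that of all tested genes was -0.0008. Among the 5 called genes, leaving out control 3 reduced the count to 3, through the loss of Fcgr2b and Fcer1g.

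**Figure D1:**
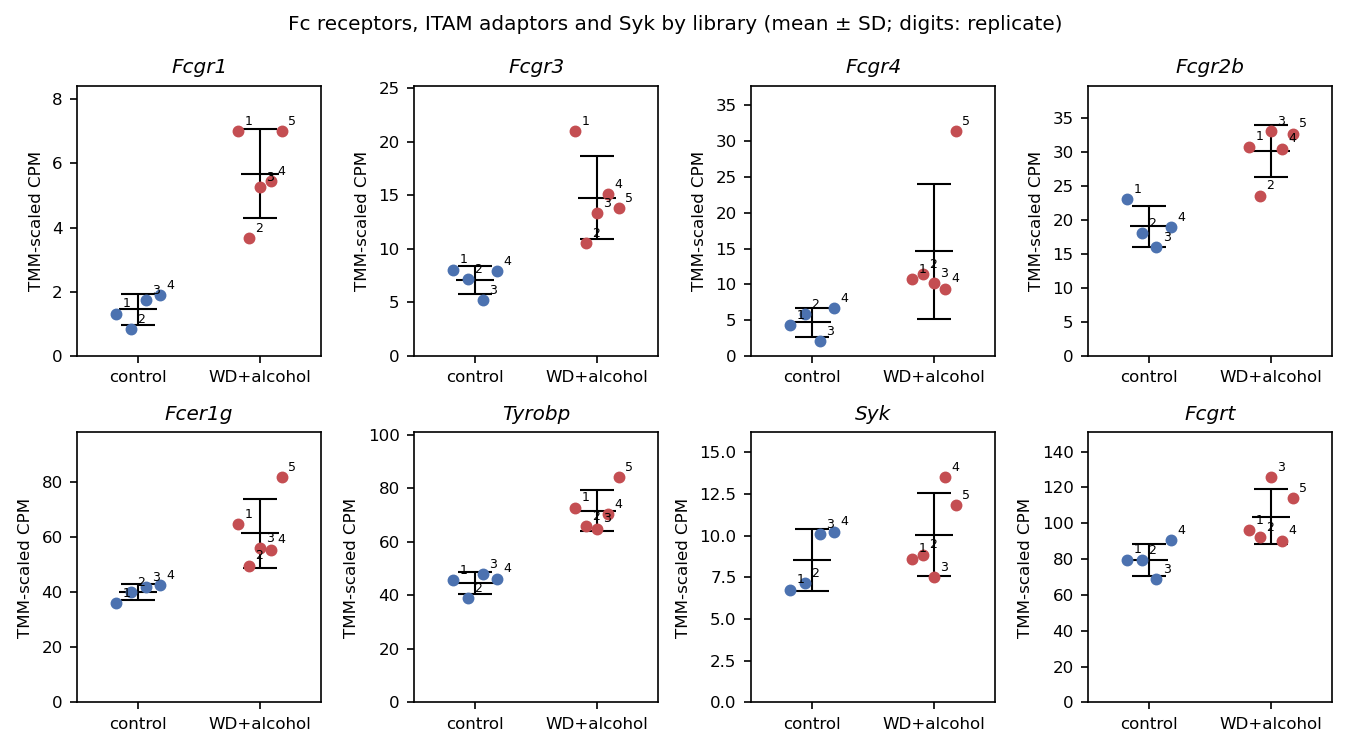
TMM-scaled CPM of each of the 8 genes in each library, with controls in blue and WD+alcohol libraries in red, the replicate number beside each point, and bars for the mean ± SD (n = 4 and n = 5). The groups are apart in 6 panels and overlap for Fcgrt and Syk, and WD+alcohol 5 stands alone at 31.4 CPM for Fcgr4.

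The activating receptors showed the widest differences. Fcgr1, which encodes the high-affinity IgG receptor CD64, was at 7.01, 3.67, 5.26, 5.45 and 7.01 CPM in WD+alcohol libraries 1 to 5. In controls 1 to 4 it was at 1.32, 0.84, 1.74 and 1.89 CPM. All WD+alcohol libraries lay above all controls, and Fcgr1 was the lowest of the 8 genes in both groups, with 24 to 36 reads against 4 to 10. The means were 5.68 ± 1.40 (SD, n = 5) and 1.45 ± 0.47 CPM (SD, n = 4), and the log2 fold change was 1.44 ± 0.22 (SE). With so few reads the size depends on the scale, and the log2 fold change ran from 0.72 with a pseudocount of 5 to 1.94 with DESeq2.

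Fcgr3 encodes CD16, a low-affinity IgG receptor of macrophages, neutrophils, natural killer cells and mast cells. It was at 21.0, 10.5, 13.3, 15.2 and 13.8 CPM in WD+alcohol libraries 1 to 5. The controls were at 8.07, 7.14, 5.21 and 7.96 CPM. WD+alcohol 1 was the highest library, and the lowest WD+alcohol library was above the highest control. The means were 14.8 ± 3.88 (SD, n = 5) and 7.10 ± 1.32 CPM (SD, n = 4), with a log2 fold change of 0.95 (95% interval 0.55 to 1.34).

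Fcgr4 encodes FcγRIV, an IgG receptor of monocytes, macrophages and neutrophils. In WD+alcohol libraries 1 to 5 it was at 10.8, 11.5, 10.1, 9.39 and 31.4 CPM. Controls were at 4.28, 5.88, 2.09 and 6.63 CPM. The first 4 WD+alcohol libraries lay close together and above all controls, and WD+alcohol 5 was far above them. The means were 14.6 ± 9.42 (SD, n = 5) and 4.72 ± 2.01 CPM (SD, n = 4). The log2 fold change was 1.38 (95% interval 0.66 to 2.10), and 1.08 without WD+alcohol 5. At an adjusted p of 0.0501 Fcgr4 was just outside the threshold, and without WD+alcohol 4 it was inside (0.0467). Over all alternative fits the adjusted p ran from 2.54e-04 with scaling on hepatocyte markers to 0.126 without control 3.

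The promoters of these 3 receptor genes are shown because all 3 hold the same short motif near the start site. Fcgr1 and Fcgr3 were called and Fcgr4 was not, and within the groups Fcgr4 had a Pearson r of only 0.17 with Fcgr1 and 0.19 with Fcgr3. The sequences are RefSeq's for build GRCm38.p6, whereas the reads were counted on GRCm39. Each runs from 120 bases before the start site to 30 after its first base, on the gene's strand. Capitals mark TTCCTC, which is the core GAGGAA of the myeloid factor PU.1 read on the opposite strand.
Fcgr1 (chr3:96293940-96294089, minus strand): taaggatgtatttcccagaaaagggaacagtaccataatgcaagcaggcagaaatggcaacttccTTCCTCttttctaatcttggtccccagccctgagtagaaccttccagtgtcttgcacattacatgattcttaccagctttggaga
Fcgr3 (chr1:171059374-171059523, minus strand): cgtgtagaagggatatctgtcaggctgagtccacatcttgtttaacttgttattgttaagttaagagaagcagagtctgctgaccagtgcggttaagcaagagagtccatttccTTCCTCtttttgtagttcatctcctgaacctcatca
Fcgr4 (chr1:171018806-171018955, plus strand): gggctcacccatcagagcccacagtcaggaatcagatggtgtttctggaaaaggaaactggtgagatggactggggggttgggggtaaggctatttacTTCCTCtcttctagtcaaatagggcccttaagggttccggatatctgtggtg

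The motif lay at bases -55 to -50 in Fcgr1, -6 to -1 in Fcgr3 and -22 to -17 in Fcgr4, counted from the start site. Fcgr1 and Fcgr3 shared a run of 14 bases around it, ttccttcctctttt, the longest shared by any pair of the genes. Promoters of 250 bases before and 50 after the start were at hand for 7 of the 8 genes (9 promoters in all), with none for Tyrobp. GAGGAA, on either strand, was in 5 of the 9, from 4 of the 7 genes, and in 28.3% of all 32851 promoters. Beside the 3 promoters shown, it was in that of a second Fcgr3 start and that of a Syk start. The second Fcgr3 promoter overlaps the first and holds the same site, which is thus counted again. The promoter of another Syk start lacked the motif. TATAAA was in 0 of the 9 and in 13.6% of all. A match is a description of letters and not a bound site.

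Fcgr2b, the inhibitory receptor, was at 30.7, 23.5, 33.0, 30.5 and 32.6 CPM in WD+alcohol libraries 1 to 5. Controls were at 23.1, 18.1, 16.0 and 18.9 CPM. The groups did not overlap, but WD+alcohol 2 and control 1 were nearly level. The means were 30.1 ± 3.83 (SD, n = 5) and 19.0 ± 2.97 CPM (SD, n = 4), with a log2 fold change of 0.64 (95% interval 0.36 to 0.91). Its call was lost without WD+alcohol 5 (adjusted p = 0.0577, limma) and without control 3 (0.0544). Of the 1467 different runs of 50 bases in the last 500 bases of annotated Fcgr2b transcripts, 33 also occur in Fcgr3 transcripts, while 0 of the 922 at the Fcgr3 ends occur in Fcgr2b. The sources used here do not state how reads that match both were counted, so some Fcgr2b reads could be shared with Fcgr3.

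Set against the inhibitory receptor, the activating receptors made up a larger part in most WD+alcohol libraries. The summed CPM of Fcgr1, Fcgr3 and Fcgr4 was 35.1 ± 10.8 (SD, n = 5) and 13.3 ± 3.10 (SD, n = 4). Divided by Fcgr2b in the same library, this sum was 1.26, 1.09, 0.869, 0.985 and 1.60 in WD+alcohol libraries 1 to 5. In the controls it was 0.593, 0.767, 0.565 and 0.870. The groups touched, with WD+alcohol 3 just under control 4. Taken singly, Fcgr1 per Fcgr2b was apart between the groups (0.156 to 0.228 against 0.0465 to 0.109). Fcgr3 per Fcgr2b (0.403 to 0.684 against 0.326 to 0.420) and Fcgr4 per Fcgr2b (0.307 to 0.963 against 0.130 to 0.350) overlapped. These ratios carry no test, since the same contrast chose the genes.

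Fcer1g, the γ chain on which Fcgr1, Fcgr3 and Fcgr4 products depend, was at 64.7, 49.7, 55.9, 55.4 and 81.7 CPM in WD+alcohol libraries 1 to 5. In controls it was at 36.1, 40.1, 41.9 and 42.6 CPM. The controls were close together, and all WD+alcohol libraries were above them, with WD+alcohol 5 highest. The means were 61.5 ± 12.5 (SD, n = 5) and 40.2 ± 2.93 CPM (SD, n = 4), with a log2 fold change of 0.58 (95% interval 0.31 to 0.85). The call was lost in 4 of 9 fits that left out 1 library: without WD+alcohol 1 (adjusted p = 0.0629, limma), control 1 (0.0876), control 2 (0.0595) or control 3 (0.0536).

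The activating receptors per Fcer1g were apart between the groups. The sum of Fcgr1, Fcgr3 and Fcgr4 divided by Fcer1g was 0.513 to 0.640 in the WD+alcohol libraries, with a median of 0.541. In the controls it was 0.216 to 0.387, with a median of 0.362, so that Fcer1g exceeded the summed receptors in all 9 libraries.

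Tyrobp, the adaptor gene with the higher mean level, was at 72.8, 66.0, 64.9, 70.4 and 84.1 CPM in WD+alcohol libraries 1 to 5. Controls were at 45.6, 38.9, 48.0 and 46.2 CPM. The lowest WD+alcohol library (64.9 CPM) was well above the highest control (48.0 CPM). The means were 71.6 ± 7.65 (SD, n = 5) and 44.7 ± 4.00 CPM (SD, n = 4), and the log2 fold change was 0.67 (95% interval 0.46 to 0.87). Its adjusted p of 0.00185 was the lowest of the 8 genes, and its call and that of Fcgr1 were kept in every alternative fit in which they were tested. Tyrobp per Fcer1g overlapped between the groups (1.03 to 1.33 against 0.969 to 1.26), so the 2 adaptors stood in a like proportion.

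Syk, the kinase both adaptors recruit, was at 8.62, 8.86, 7.51, 13.5 and 11.8 CPM in WD+alcohol libraries 1 to 5. Controls were at 6.76, 7.14, 10.1 and 10.2 CPM. The groups overlapped, with WD+alcohol 4 and 5 alone above all controls. The means were 10.1 ± 2.49 (SD, n = 5) and 8.55 ± 1.86 CPM (SD, n = 4). The log2 fold change was 0.20 with a 95% interval of -0.20 to 0.61, so that neither no difference nor one of the size seen for Fcer1g (0.58) falls outside it. Per summed adaptor (Fcer1g plus Tyrobp), Syk was 0.0621 to 0.107 in the WD+alcohol libraries and 0.0827 to 0.115 in the controls, and 4 of the 5 WD+alcohol libraries were under every control.

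Fcgrt was the most abundant of the 8 genes in both groups. It was at 96.2, 92.3, 126, 90.3 and 114 CPM in WD+alcohol libraries 1 to 5. Controls were at 79.8, 79.4, 69.0 and 90.8 CPM. WD+alcohol 4 was just under control 4, and the other WD+alcohol libraries were above all controls. The means were 104 ± 15.4 (SD, n = 5) and 79.7 ± 8.89 CPM (SD, n = 4), with a log2 fold change of 0.37 (95% interval 0.13 to 0.61, adjusted p = 0.119). It was called only with scaling on hepatocyte markers (log2 fold change 0.69), which moved the median of all genes to 0.29. An antisense gene, Gm45669, overlaps Fcgrt and averaged 0.18 and 0.38 CPM.

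Of the partners of FcRn, the light chain gene B2m was not called. It was at 3231 ± 259 (SD, n = 5) and 2833 ± 635 CPM (SD, n = 4), with a log2 fold change of 0.21 and an adjusted p of 0.608. Fcgrt per 100 CPM of B2m overlapped between the groups (2.79 to 3.78 against 2.22 to 3.25). Alb, the gene of the FcRn cargo albumin, was lower, at 18876 ± 3597 (SD, n = 5) against 33497 ± 6566 CPM (SD, n = 4), with a log2 fold change of -0.83 and an adjusted p of 0.0491. That call was kept without WD+alcohol 3 alone and was lost when any other single library was left out, with adjusted p from 0.0614 without control 1 to 0.137 without WD+alcohol 5. Fcgrt per 1000 CPM of Alb was 4.47 to 6.43 in the WD+alcohol libraries and 1.89 to 2.99 in the controls, with no overlap. Of the 12 listed genes of other immunoglobulin receptors and FcRn partners 5 were tested, 0 were higher and Alb alone was lower.

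**Figure D2:**
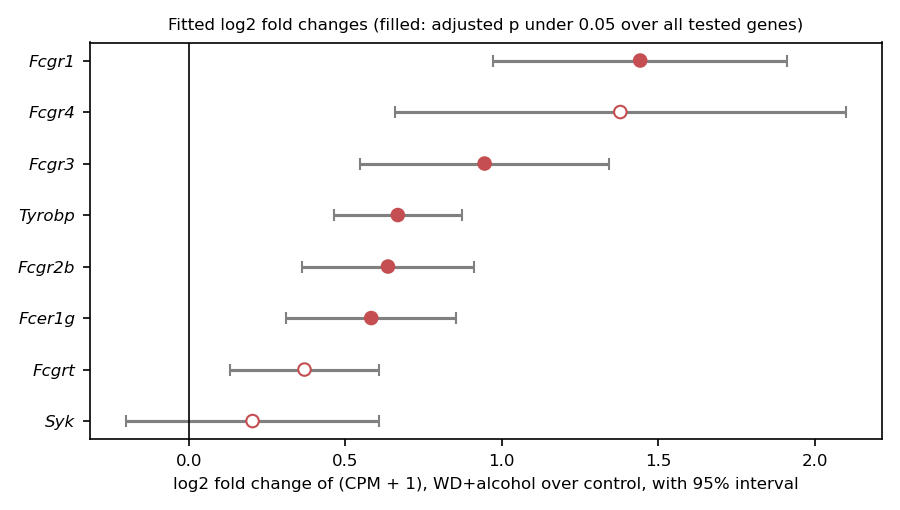
Log2 fold change of (CPM + 1), WD+alcohol over control, of each of the 8 genes from limma-trend, with 95% intervals and filled points for an adjusted p under 0.05 over all tested genes. Fcgr1 and Fcgr4 have the highest estimates (1.44 and 1.38), the Fcgr4 interval is the widest, and only the Syk interval reaches below 0.

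In order of mean level, the control group ran from Fcgrt through Tyrobp, Fcer1g, Fcgr2b, Syk, Fcgr3 and Fcgr4 to Fcgr1. By the means of the WD+alcohol group Syk was under Fcgr3 and Fcgr4, although in WD+alcohol 4 it was above Fcgr4 (13.5 and 9.39 CPM). Tyrobp and Fcer1g overlapped in both groups, as did Syk with Fcgr3 and Fcgr3 with Fcgr4, while Fcgr1 overlapped neither Fcgr4 nor Syk within a group. Fcgrt stood above Tyrobp, and Fcgr2b between the adaptors and the lower receptors, with no overlap in either group except that Fcgr4 in WD+alcohol 5 reached the range of Fcgr2b. Each of the WD+alcohol libraries 1 to 4 had 7 of the 8 genes above the highest control, and WD+alcohol 5 had all 8. WD+alcohol 5 was the highest of the 9 libraries for Fcgr4, Fcer1g and Tyrobp, and control 3 was the lowest for 4 of the 8 genes.

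**Figure D3:**
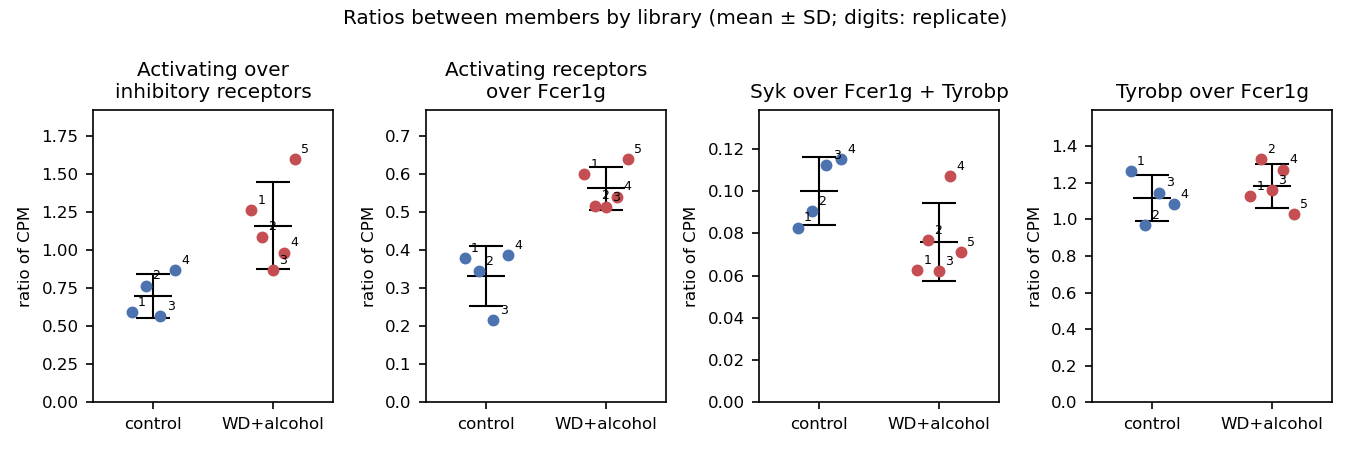
Ratios of CPM within each library, with controls in blue and WD+alcohol libraries in red and bars for the mean ± SD (n = 4 and n = 5). The summed activating receptors (Fcgr1, Fcgr3 and Fcgr4) per Fcer1g are apart between the groups, those per Fcgr2b touch, and Tyrobp per Fcer1g overlaps widely.

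Within the groups, some of the 8 genes varied together. Deviations from the group means of log2(CPM + 1) over the 9 libraries, which share depth and scaling, correlated at a Pearson r of 0.81 for Fcgr1 with Tyrobp. The value was 0.73 for Fcer1g with Tyrobp and 0.72 for Fcgr1 with Fcer1g. Syk with Fcgr2b had an r of -0.20, and Fcgrt with Tyrobp one of 0.02. Compared with them were 10138 genes averaging 5 CPM or more, with clone-like names, such as Gm and Rik symbols, left out. The genes most like Tyrobp were Srprb (0.93), Themis2 (0.93), Jpt1 (0.92), Lats1 (0.92) and Eif2b1 (0.92). For Fcer1g they were Gpatch4 (0.95), Rtel1 (0.93), Ces2g (0.93), Hacd4 (0.92) and Mfsd12 (0.91). For Fcgrt they were Rhot2 (0.97), Acads (0.95), Ndufs1 (0.94), Acadm (0.94) and Scand1 (0.92), of which Acads and Acadm encode mitochondrial fatty acid oxidation enzymes and Ndufs1 a respiratory chain subunit. These names are the highest of 10138 values of r over 9 libraries and are a description.

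Beside the 8 genes, several macrophage genes were higher. The 14 pan-macrophage markers summed to 1167 ± 109 (SD, n = 5) and 827 ± 56.2 CPM (SD, n = 4), with no overlap, and 6 of 14 were called higher and 0 lower (median log2 fold change 0.43). The 4 with the smallest p were the protease gene Ctss (117 ± 18.9 against 51.2 ± 4.03 CPM), the lysozyme gene Lyz2 (229 ± 51.3 against 103 ± 7.58 CPM), Cd68 (24.3 ± 3.52 against 11.5 ± 1.03 CPM) and Adgre1, which encodes F4/80 (21.7 ± 4.92 against 8.50 ± 1.26 CPM). Csf1r and Mpeg1 were the other two, and their calls were lost without WD+alcohol 5 (adjusted p = 0.0584 and 0.0930) or control 1 (0.0518 and 0.0549). With all libraries kept, Csf1r was lost with robust fitting (adjusted p = 0.129) and Mpeg1 with no filter on low genes (0.05004). That of Mpeg1 was also lost without WD+alcohol 1 or 4 or control 2 or 4 (0.0598 to 0.0718). Spi1, the gene of PU.1, was at 24.8 ± 3.88 against 18.3 ± 1.73 CPM, with an adjusted p of 0.127.

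Per 100 CPM of these markers, the 8 genes differed from each other. Fcgr1 (0.332 to 0.554 against 0.112 to 0.220), Fcgr4 (0.798 to 2.47 against 0.239 to 0.787) and Tyrobp (5.75 to 6.61 against 5.20 to 5.51) did not overlap between the groups. Fcgr3 was above all controls in 4 of 5 WD+alcohol libraries (0.955 to 1.66 against 0.599 to 0.973). Fcgr2b had means of 2.59 and 2.31, Fcer1g of 5.25 and 4.87 and Fcgrt of 8.99 and 9.68, all with overlap. Syk, at 0.859 and 1.03, was above the highest control in 0 of 5 libraries. What part the number of macrophages had in the differences of the 8 genes was not tested.

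Of the cell type lists, Kupffer cell markers were called higher in 8 of 11 cases and summed to 374 to 672 CPM against 92.8 to 196. Their 2 smallest p-values were those of the secreted protein gene Cd5l (155 ± 38.0 against 26.0 ± 7.14 CPM) and the complement gene C1qc (75.5 ± 17.9 against 20.1 ± 4.41 CPM). Of the 3 Kupffer cell markers not called, Timd4 (2.43 ± 1.20 against 2.86 ± 0.95 CPM) and Cd163 (6.86 ± 2.67 against 10.4 ± 5.36 CPM) had negative log2 fold changes (-0.22 and -0.50). Lipid-associated macrophage markers were higher in 5 of 8 cases and summed to 302 to 472 CPM against 200 to 213. The smallest p-values were those of Gpnmb (31.8 ± 13.2 against 2.11 ± 0.77 CPM) and Mmp12 (14.8 ± 4.76 against 1.39 ± 0.30 CPM). Lpl was the most abundant called marker of this list (127 ± 48.1 against 14.8 ± 5.06 CPM). Not called were Spp1 (124 ± 8.42 against 118 ± 4.15 CPM), Cd9 (36.1 ± 4.90 against 33.7 ± 2.34 CPM) and Fabp5 (31.4 ± 1.48 against 32.7 ± 5.79 CPM). Their log2 fold changes were 0.06, 0.09 and -0.04. Monocyte markers summed to 1440 to 1573 against 1519 to 1652 CPM, and 1 of 6 was higher, Plac8 (39.4 ± 7.37 against 25.0 ± 2.23 CPM). Most of the sum was Fn1 (1413 ± 65.6 against 1525 ± 56.3 CPM), so it says little about the rest of the list. Fn1 alone of the 6 had a negative log2 fold change (-0.11) and the other 5 had positive ones. Ly6c2, for one, was at 2.87 ± 1.03 against 1.11 ± 0.41 CPM (adjusted p = 0.121, limma). The part of these cells in the differences of the 8 genes was not tested.

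Several other cell types carry Fc receptors, and few of their markers could be tested. Neutrophil markers, which go with Fcgr3 and Fcgr4, summed to 22.4 to 45.8 CPM against 9.87 to 24.1, with means of 36.5 and 17.9 CPM and 4 of 5 WD+alcohol libraries above the highest control. Of 11 such markers 3 were tested and 0 called. S100a9 was at 20.03 ± 3.05 against 12.3 ± 3.86 CPM, and S100a8 at 11.2 ± 5.84 against 2.70 ± 2.28 CPM, with a log2 fold change of 1.77 (adjusted p = 0.0675), above that of each of the 8 genes. Natural killer cell markers, which go with Fcgr3, summed to 3.21 to 7.55 CPM against 2.31 to 3.98, also with 4 of 5 WD+alcohol libraries above the highest control. Of these 2 were tested and 0 called. Klrd1 was at 2.07 ± 0.50 against 1.63 ± 0.71 CPM. Nkg7 was at 1.95 ± 1.34 against 0.38 ± 0.34 CPM, with a log2 fold change of 1.01 (adjusted p = 0.182, limma). Sinusoidal endothelial markers, which go with Fcgr2b, summed to 158 to 217 CPM against 138 to 196, with 0 of 9 called. The most abundant, Dnase1l3, was at 58.5 ± 7.59 against 64.4 ± 5.65 CPM, but 6 of the 9 had a positive log2 fold change and 3 had an unadjusted p under 0.05. These were Stab2 (22.8 ± 4.65 against 12.1 ± 6.77 CPM, adjusted p = 0.144), Clec4g (31.9 ± 5.67 against 23.3 ± 4.39 CPM, adjusted p = 0.187) and Stab1 (16.6 ± 2.73 against 13.1 ± 1.02 CPM, adjusted p = 0.341, with no overlap). Dendritic cell markers gave 0 of 6 (103 to 135 against 97.5 to 128 CPM, Xcr1 at 47.6 ± 8.06 against 48.7 ± 2.93 CPM).

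B and plasma cell markers gave 0 of 4 (231 to 284 against 224 to 281 CPM, mostly Igkc), with Cd79a and Mzb1 at 0 reads. T cell markers summed to 10.1 to 12.6 against 7.96 to 8.73 CPM, with 0 of 3 called and Cd8a at 4.08 ± 1.03 against 3.25 ± 0.80 CPM. Platelet markers included 1 called of 3, Pf4 (7.56 ± 2.38 against 2.23 ± 1.04 CPM), in a sum of 100 to 126 against 108 to 128 CPM. The other tested platelet markers had negative log2 fold changes (-0.15 and -0.14). They were Ppbp (61.8 ± 5.02 against 68.5 ± 5.77 CPM) and Itga2b (43.9 ± 5.90 against 48.3 ± 5.90 CPM). Stellate cell markers summed to 191 to 275 against 117 to 166 CPM, with 1 of 7 called, Dcn (163 ± 29.9 against 93.0 ± 14.3 CPM). Cholangiocyte markers gave 0 of 3 (97.0 to 124 against 95.6 to 115 CPM, Sox9 at 101 ± 10.2 against 104 ± 8.64 CPM). Hepatocyte markers were lower in 3 of 24 cases (Apoa1, Alb and Itih1) and higher in 0, and they summed to 47825 to 63853 against 63327 to 88898 CPM. The part of these cells in the 8 genes' differences was not tested.

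Several mast cell genes stood high in all 9 libraries, although mast cells are known as a rare cell type of mouse liver. They carry the IgE receptor FcεRI, whose γ chain is the product of Fcer1g, and they also express Fcgr2b, Fcgr3 and Syk. The FcεRI α chain gene Fcer1a was at 34.5 to 45.4 CPM in the WD+alcohol libraries and 38.2 to 50.7 CPM in the controls. The β chain gene Ms4a2 was at 24.5 to 31.9 and 25.8 to 31.8 CPM. The protease gene Cpa3 was at 677 to 859 and 758 to 834 CPM, above Fcgrt, the most abundant of the 8 genes, in every library. Of the 4 tested genes of the mast cell and basophil list 0 were called, and the list summed to 930 to 1220 against 1061 to 1194 CPM.

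Further mast cell genes, 10 in all, were looked up after these levels had been seen. Cma1, a chymase gene, was at 469 to 584 against 522 to 573 CPM, the receptor gene Kit at 43.5 to 54.2 against 46.8 to 57.3 CPM, and Il1rl1 at 91.1 to 109 against 95.8 to 112 CPM. Gata2, a transcription factor gene, was at 23.4 to 36.5 against 30.9 to 38.1 CPM, and Cyp11a1 at 44.6 to 59.7 against 49.0 to 61.3 CPM. All of these overlapped between the groups. Hdc, also looked up, was lower in level, at 6.57 to 8.94 against 7.01 to 9.56 CPM. The remaining looked-up genes, Mcpt1, Mcpt2, Tpsab1 and Mrgprb2, were near 0 and averaged at most 0.79 CPM in either group. Mcpt4, a connective tissue mast cell protease gene, averaged 0.094 and 0.11 CPM, and the basophil genes Mcpt8 and Prss34 averaged at most 0.16 CPM. In the controls, Fcer1a was at the level of Fcer1g (44.8 ± 5.49 and 40.2 ± 2.93 CPM), while in the WD+alcohol libraries Fcer1g was above Fcer1a in each library. The part of mast cell RNA in the levels of Fcer1g, Fcgr2b, Fcgr3 and Syk was not tested.

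**Figure D4:**
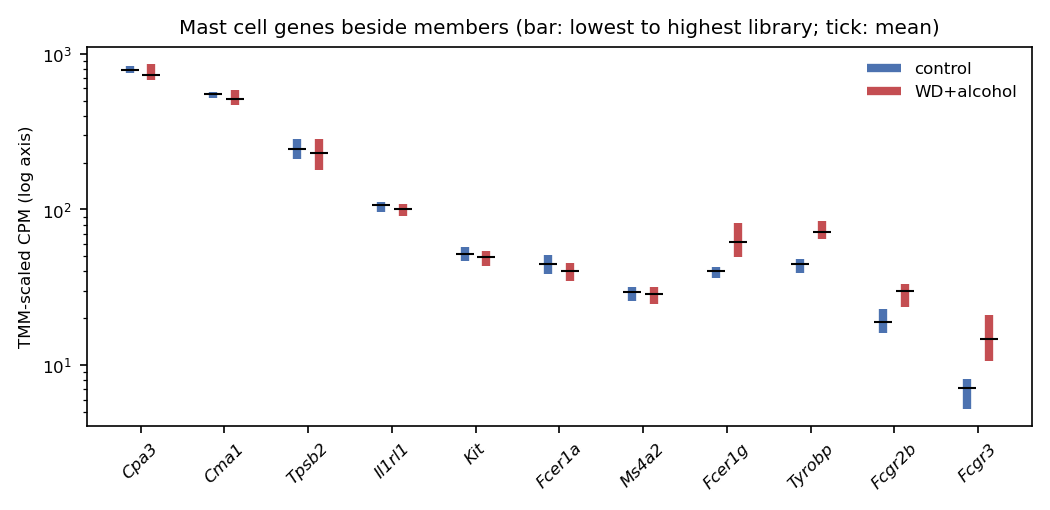
TMM-scaled CPM on a log axis, with a bar from the lowest to the highest library of each group and a tick at the mean, for 7 mast cell genes and for Fcer1g, Tyrobp, Fcgr2b and Fcgr3. Each mast cell gene overlaps between the groups, and Fcer1g, Tyrobp, Fcgr2b and Fcgr3 do not.

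The list of ITAM-coupled receptors held 36 genes, among them adaptor and signalling chain genes such as Hcst and Cd247. Of the 36, 18 were tested, 3 were called higher and 0 lower, with a median log2 fold change of 0.40. Clec7a, the β-glucan receptor Dectin-1, which reaches Syk by a motif in its own tail, was at 36.9 ± 7.97 (SD, n = 5) against 15.2 ± 0.71 CPM (SD, n = 4). Trem2, a lipid-sensing receptor that needs Tyrobp, was at 3.36 to 9.97 CPM against 0 to 0.758 CPM. Cd300ld was at 9.18 ± 2.62 (SD, n = 5) against 2.57 ± 1.29 CPM (SD, n = 4). The number called was 5 without WD+alcohol 3. The other 15 tested genes of the list, Fcer1a and Ms4a2 among them, were not called, and 3 of the 36 had 0 reads in every library.

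Of 34 kinases and adaptors downstream of ITAMs, 33 were tested, 1 was higher and 0 lower, with a median log2 fold change of 0.08. The one was the Src-family kinase gene Fgr (4.94 ± 1.66 against 1.82 ± 0.48 CPM, adjusted p = 0.0299). Its call was lost without WD+alcohol 1, 3 or 5 or control 2, 3 or 4, with adjusted p from 0.0507 to 0.0886, and with no filter on low genes (0.0853). Most genes of this list, like Syk, were not called, and 12 of 33 had a negative log2 fold change.

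Of 30 ITIM receptors and inhibitory signalling genes, 27 were tested, 4 were higher and 0 lower, with a median log2 fold change of 0.31. They were Cd72 (4.80 ± 2.01 against 1.04 ± 0.23 CPM), Sirpa, the receptor for CD47 (51.3 ± 7.79 against 34.6 ± 2.63 CPM), the adaptor gene Dok2 (3.75 ± 1.15 against 1.24 ± 0.42 CPM) and the collagen receptor gene Lair1 (5.29 ± 1.47 against 1.74 ± 0.93 CPM). The phosphatase genes Ptpn6 and Inpp5d, whose products ITIMs recruit, were not called (29.6 ± 3.71 against 21.7 ± 1.65 CPM with adjusted p = 0.0595, and 26.2 ± 3.69 against 23.1 ± 3.29 CPM with adjusted p = 0.678). The count of 4 was 1 without WD+alcohol 5 and 2 without control 3 or control 4. Sirpa was lost without WD+alcohol 5 or control 4 (adjusted p = 0.0522 and 0.0612) and Dok2 without WD+alcohol 5, control 3 or control 4 (0.0529 to 0.0642). Lair1 was lost without WD+alcohol 1, 3 or 5 or control 1, 3 or 4 (0.0617 to 0.0869). With no filter on low genes Dok2 (0.0580) and Lair1 (0.0738) were lost too.

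Among the 6 genes of the phagocyte oxidase, which ITAM signals activate, 1 was higher and 0 lower (median log2 fold change 0.29). It was Cybb, the catalytic subunit, at 44.5 ± 7.67 (SD, n = 5) against 22.7 ± 1.38 CPM (SD, n = 4). Of 13 immunoglobulin genes of all classes, light chains and J chain included, 8 were tested and 0 were called by limma, edgeR or DESeq2, with 1 at an unadjusted p under 0.05. Igkc was at 199 ± 16.8 against 211 ± 24.8 CPM and Ighm at 21.8 ± 3.22 against 17.4 ± 2.49 CPM (adjusted p = 0.387). The IgG heavy chain genes, which encode the ligands of the Fcγ receptors and of FcRn, were low. Ighg2b averaged 1.89 ± 1.03 against 1.29 ± 0.28 CPM and Ighg2c 1.34 ± 1.20 against 0.80 ± 0.74 CPM, neither of them called, and Ighg1 and Ighg3 averaged at most 0.19 CPM and were not tested.

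**Figure D5:**
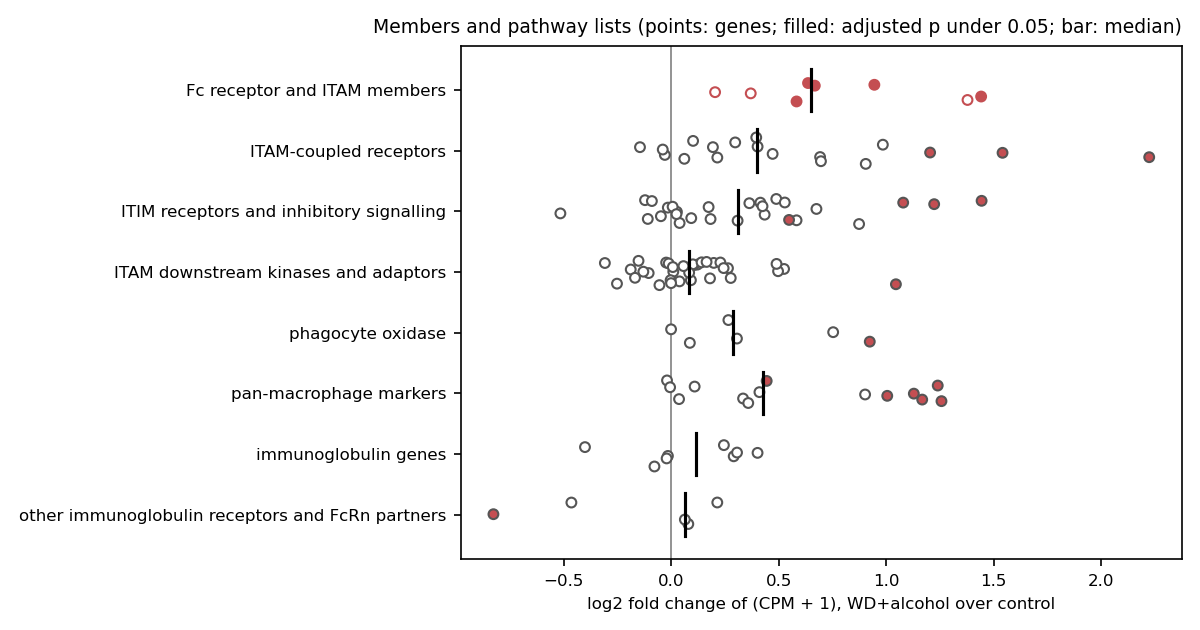
Log2 fold change of (CPM + 1), WD+alcohol over control, of every tested gene of each list, with filled points for an adjusted p under 0.05 and a bar at the list's median. The medians are 0.65 for the 8 genes, 0.40 for ITAM-coupled receptors, 0.31 for inhibitory genes and 0.08 for downstream kinases and adaptors.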

How the data were processed

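Livers of 9 mice (5 WD+alcohol, 4 control; groups from the sample titles, each library taken as 1 mouse) were made into 3′ mRNA libraries with the Collibri kit, per the labels' protocols. Per the submitters' processing notes, the tools were Trim Galore 0.6.0, cutadapt 1.18, STAR (the sources used here state no version), HTSeq 0.11.0 and edgeR 3.28.1 in R 3.6.3, with build GRCm39. The sources used here do not state the strand and multimapping settings of the counting. The deposited values are a signal, CPM scaled by TMM by the authors. Of the positive values 100% were whole multiples of 1 read (relative tolerance 1e-06), so reads were recovered. On those reads edgeR's quasi-likelihood test called 222 genes higher and 93 lower, and DESeq2 370 and 175. A value of 0 reads allows up to 3 reads, or 0.455 to 0.809 CPM, for counting error only.

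The two-sided limma-trend test (limma 3.58.1 in R 4.3.3) was run on log2(CPM + 1) of 14759 genes averaging 1 CPM or more, adjusted by Benjamini-Hochberg over all of them at a threshold of 0.05. It called 238 genes higher and 100 lower, and 1798 had an unadjusted p under 0.05. The script was tested on simulated data. Alternatives were a pseudocount of 0.25 or 5, a minimum mean of 5 CPM or none, other scalings (one total, median of ratios, quantile, hepatocyte markers), robust fitting, a block for the replicate number, array weights, edgeR 4.0.16, DESeq2 1.42.0 and leaving out each library.

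The genes described and all lists were chosen with earlier results of these data known. All 8 genes are named. Also named are, of each pathway list, up to 4 called genes with the smallest p or else the most abundant; of each cell type list, the 2 called genes with the smallest p or else the most abundant; the 5 genes most correlated with Tyrobp, Fcer1g and Fcgrt; and B2m, Alb, Trem2, Ptpn6, Inpp5d, Igkc, Ighm and Spi1. Fcer1a, Ms4a2, Tpsb2, Cma1, Kit, Il1rl1, Gata2, Cyp11a1, S100a8, Stab1, Stab2, Clec4g, Timd4, Cd163, Csf1r, Mpeg1, the IgG genes, Mcpt4, Mcpt8, Prss34 and Gm45669 were named after their values were seen. So were Hdc, Mcpt1, Mcpt2, Tpsab1, Mrgprb2, Fn1, Ly6c2, Nkg7, Hcst, Cd247, Ppbp, Itga2b, Lpl, Spp1, Cd9 and Fabp5. Gene overlaps and shared runs of bases come from GENCODE transcripts of GRCm38. Promoters are RefSeq's (GRCm38.p6).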

Additional observations from a re-analysis of the deposited data

Results flagged for a closer look

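In 9 of 82 groups of 4 or 5 libraries 1 library stood apart by Dixon's criterion, where chance gives about 1 in 20. Of the 8 genes' levels, Fcgr4 was high in WD+alcohol 5 (31.4 CPM) and Fcgr2b was low in WD+alcohol 2 (23.5 CPM). The same Fcgr4 value set its ratio to Fcgr2b (0.963) and its level per 100 CPM of pan-macrophage markers (2.47) apart in WD+alcohol 5. Per 100 CPM of those markers, Fcgrt was high in WD+alcohol 3 (12.4) and Fcgr3 was low in control 3 (0.599). In control 3 the summed lipid-associated macrophage markers were high (213 CPM) and the summed cholangiocyte markers low (95.6 CPM). The summed T cell markers were low in control 4 (7.96 CPM). No cause was tested for any of them.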

How the results depend on the processing

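Limits: the depth gave 4 to 36 reads of Fcgr1 per library, and 4 or 5 libraries a group let single libraries decide calls near the threshold. All 8 genes kept a positive log2 fold change in every alternative, and 0 were called lower. The number of the 8 called was 5, from 2 with the replicate block to 7 with hepatocyte scaling, and 3 to 6 without single libraries. Fcgr1 was not tested with a minimum mean of 5 CPM. Over all genes, 238 higher became 365 with one total, 1206 with hepatocyte scaling (which moved the median of all genes to 0.29), 370 with DESeq2 and 139 to 264 without single libraries, with 139 without WD+alcohol 5 and 148 without control 1. The 100 lower became 175 with DESeq2 and 59 to 123 without single libraries. With hepatocyte scaling, 7 ITAM-coupled receptors, 5 kinases and adaptors, 12 inhibitory genes, 1 immunoglobulin gene, 3 oxidase genes and 10 pan-macrophage markers were higher, 0 FcRn partners were lower, and the log2 fold change of Igkc reversed to 0.24. With one total, 2 kinases and adaptors and 8 inhibitory genes were higher. With array weights these were 2 and 7, and with DESeq2 2 and 7 beside 5 ITAM-coupled receptors. With no filter 0 kinases and adaptors and 2 inhibitory genes were higher, and with a minimum of 5 CPM 0 and 1. The call of Alb, the 1 lower FcRn partner, became 0 with a pseudocount of 5, no filter, one total, quantile scaling and the block. Without single libraries, ITAM-coupled receptors called were 3 to 5, kinases and adaptors 0 to 1, inhibitory genes 1 to 5, FcRn partners lower 0 to 1 and pan-macrophage markers 4 to 7. The cause of these shifts was not tested. The labels do not state that libraries with the same replicate number form a pair. Their correlations of deviations were -0.008, -0.31, -0.21 and -0.015. These show no pairing, but so few values cannot exclude a shared litter, batch or day. With the replicate block, in which WD+alcohol 5 has no partner and adds nothing to the contrast, 76 genes were higher and 36 lower, 2 of the 8 genes were called (Fcgr1 and Tyrobp), and 0 kinases and adaptors, 0 inhibitory genes and 0 FcRn partners were called.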
